A study of Mus musculus with 16 samples.

Results

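The genes described are 9 transcription factor genes of the urogenital system, Msx1, Msx2, Osr1, Osr2, Pax2, Pax8, Emx2, Lhx1 and Lhx9. They were chosen by name, with earlier results of these data known, where the arrays measured 18193 genes. Of these 9, 8 had a probe set that the annotation used here pairs with that gene alone. None was paired with Pax2 alone, and Pax2 is therefore not analysed here. Where a gene had several probe sets, the one with the highest mean level over all arrays stood for it, and the others served as a check. Msx1, Msx2, Osr2, Pax8 and Lhx1 had 2 probe sets each, Lhx9 had 4, and Osr1 and Emx2 had 1.

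RNA came from 16 newborn XX mouse ovaries, which were separated from the mesonephros, and each array held the amplified RNA of 1 ovary. There were 4 ovaries for each of 4 genotypes from crosses on a mixed background. Each ovary was 1 biological replicate. Control ovaries carried 1 floxed and 1 wild-type Runx1 allele, both copies of Foxl2 and no Cre. In the Runx1 KO group 1 Runx1 allele was null and the other floxed, and the ovaries had the Sf1-cre transgene. Foxl2 KO ovaries had lost both copies of Foxl2, with Runx1 as in the controls (1 floxed and 1 wild-type allele) and no Cre. The double knockout (DKO) ovaries combined the Runx1 null and floxed alleles, Sf1-cre and the loss of both Foxl2 copies. A floxed Runx1 allele was thus present in every group, and Cre was present in both groups that lost Runx1 and in neither of the others, so effects of Cre and of Runx1 loss cannot be told apart. Sf1-cre is driven by regulatory sequence of Nr5a1, which encodes steroidogenic factor 1 (SF1), and recombines floxed alleles in the somatic cells of the gonad, whereas Foxl2 was lost in every cell.

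Msx1 and Msx2 encode homeodomain repressors that commonly act downstream of bone morphogenetic protein (BMP) signals, and in the fetal ovary they take part in the entry of germ cells into meiosis. Osr1 and Osr2 encode zinc finger proteins related to Drosophila odd-skipped, and Osr1 marks the intermediate mesoderm from which kidney and gonad arise. Pax2 and Pax8 encode paired-box factors of the nephric and Müllerian ducts, and Lhx1 acts with them in the duct epithelium. Emx2 and Lhx9 encode homeodomain factors of the early gonadal epithelium, and a gonad fails to form without either. Runx1 and Foxl2 encode transcription factors of pre-granulosa cells, which support the germ cells in the fetal ovary.

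Levels are given as the deposited linear intensity of a probe set, and differences as differences of log2(intensity + 16) with their moderated standard error from limma. A gene was called where its p-value, adjusted by the Benjamini-Hochberg method over all genes, was under 0.05. Because the ovaries were XX, probe sets of Y-linked genes gave a scale for signal without a transcript. Over all arrays the mean log2 level of 5 such genes lay between 4.51 and 6.16. The upper end was set by Usp9y, and the others lay at 5.34 or below. A group mean between 5.34 and 6.16 is thus within the scale through Usp9y alone. The probe set of Sry read 8.30 and was left out of this scale, a choice made after its value was seen.

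The sequences before the start of Msx2, Pax8 and Msx1 are shown because these genes changed in different genotypes and their promoters are where short RUNX, forkhead and homeodomain cores were searched. RefSeq sequence of build GRCm38.p6 was used, which holds an entry for 7 of the 9 genes and none for Osr1 or Osr2. Each sequence below is the 250 bases before the annotated start, read 5′ to 3′ on the strand of the gene. They lie at chr13:53472781-53473030 for Msx2, chr2:24475600-24475849 for Pax8 and chr5:37824586-37824835 for Msx1, all on the minus strand. Capitals mark a match to the homeodomain core.
Msx2: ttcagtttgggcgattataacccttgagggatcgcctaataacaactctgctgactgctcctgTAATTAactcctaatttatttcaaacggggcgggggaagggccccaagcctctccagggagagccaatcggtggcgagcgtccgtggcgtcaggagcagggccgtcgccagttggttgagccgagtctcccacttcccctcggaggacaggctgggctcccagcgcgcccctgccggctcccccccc
Pax8: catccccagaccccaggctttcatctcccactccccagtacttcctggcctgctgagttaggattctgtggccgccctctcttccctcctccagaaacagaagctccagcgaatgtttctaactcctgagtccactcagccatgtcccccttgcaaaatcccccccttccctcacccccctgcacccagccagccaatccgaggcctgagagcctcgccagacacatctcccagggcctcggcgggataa
Msx1: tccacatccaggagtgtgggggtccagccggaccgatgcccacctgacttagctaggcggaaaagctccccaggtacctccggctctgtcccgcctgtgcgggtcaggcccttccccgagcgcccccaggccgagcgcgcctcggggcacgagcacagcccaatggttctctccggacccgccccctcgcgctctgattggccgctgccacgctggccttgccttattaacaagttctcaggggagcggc

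The Msx2 window held 1 homeodomain core, TAATTA, which begins 187 bases before the start. Neither the RUNX core (TGTGGT, or ACCACA on the other strand) nor the forkhead core (TGTTTAC, or GTAAACA) was found in these 3 windows, and the Pax8 and Msx1 windows also lacked TAATTA. Over 32851 promoters of the same length, 4.84% held the homeodomain core, 14% the RUNX core and 3.17% the forkhead core. TAATTA reads the same on both strands, and none of these cores contains another. RefSeq also places a transcript over each of these genes, the antisense RNA Msx1os over Msx1 and the long noncoding RNAs Gm33763 over Msx2 and Gm13415 over Pax8, and which transcript a probe reads was not checked.

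Foxl2 intensity was 2774 to 4241 in the control ovaries, 484 to 890 in Foxl2 KO and 570 to 839 in DKO. It was lower in both groups that lack the gene (log2 difference from control -2.32 ± 0.20 and -2.37 ± 0.20). Runx1 differed from control by -0.64 ± 0.19 in Runx1 KO (unadjusted p = 0.00436, adjusted p = 0.398) and by -0.01 ± 0.19 in DKO (adjusted p = 0.997) in the limma fit, so no fall was called. Where its probes lie relative to the floxed part was not given in the sources used here, and the Runx1 signal therefore does not check the labels. By quantitative PCR the study reported that Runx1 expression was ablated in fetal Runx1 KO gonads. It also measured both genes by that method at birth, and reported no change of Runx1 without Foxl2 or of Foxl2 without Runx1. Control replicate 4 stood apart in red blood cell genes, with a summed intensity of 14799 over 6 erythroid markers against 298 to 602 in the knockout ovaries. Over all arrays, all 12 oocyte markers and all 9 pre-granulosa markers had a mean level above the Y-linked scale, which leaves out Sry. Some of these mean log2 levels were low, such as 6.24 for the pre-granulosa marker Esr2, below the 8.30 of Sry. Within groups some lay inside the scale, such as Esr2 in Foxl2 KO (5.65) and DKO (5.17) and the oocyte marker Oosp1 in DKO (5.60).

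Of the 8 measured factors, 4 were called in at least 1 comparison between genotypes (Msx1, Msx2, Osr2 and Pax8), and 4 were called in none (Osr1, Emx2, Lhx1 and Lhx9). In Runx1 KO against control 1 of 8 rose and 0 fell, where 0.121% of all genes were called, 0.0495% higher and 0.0715% lower. In Foxl2 KO against control 1 rose and 1 fell, beside 1.52% of all genes, 0.813% higher and 0.704% lower. In DKO against control 3 rose and 0 fell, beside 2.13% of all genes, 1.28% higher and 0.857% lower. These 3 comparisons share the control ovaries. DKO against Foxl2 KO gave 2 that rose and 0 that fell, beside 0.0605% of all genes, 0.022% higher and 0.0385% lower. DKO against Runx1 KO gave 0 by limma (3 at an unadjusted p under 0.05), beside 0.989% of all genes. The factors were chosen with earlier results of these data known, so these counts beside the shares are a description and not a test. The median log2 difference of the 8 factors from control was 0.15 in Runx1 KO, 0.02 in Foxl2 KO and 0.39 in DKO, against 0.04, 0.05 and 0.04 over all genes.

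**Figure D1:**
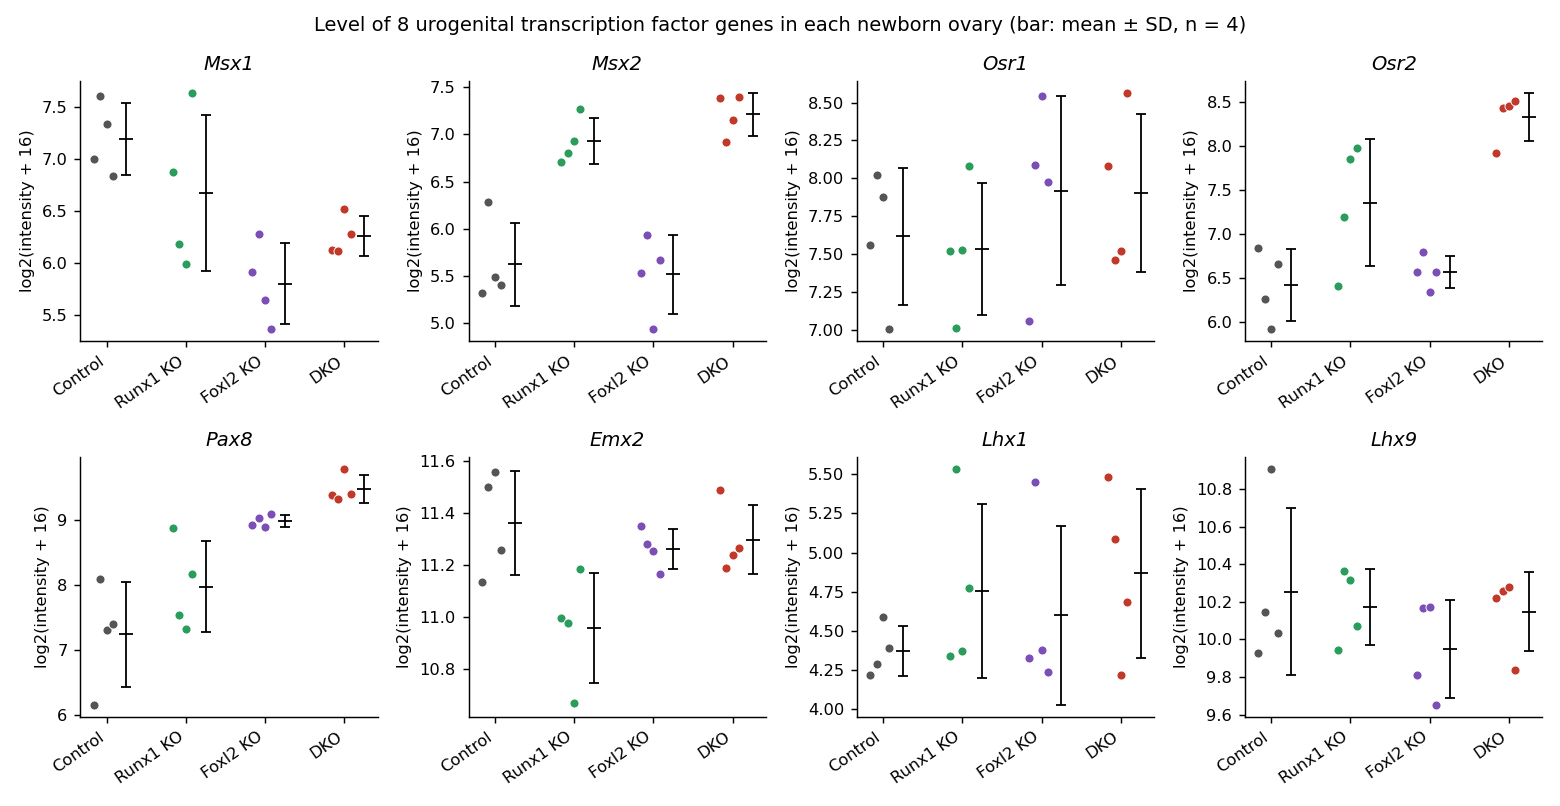
Level of each of the 8 measured genes as log2(intensity + 16) on the y axis, 1 point for each ovary, in control, Runx1 KO, Foxl2 KO and DKO; the bar beside the points is the mean ± SD of 4 ovaries, and each panel has its own scale. Msx2 lies high in both groups with the Runx1 null allele and Cre, Pax8 in both groups without Foxl2, and Osr2 highest in DKO, where its 4 ovaries sit above all ovaries of control and Foxl2 KO.

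Msx2 rose in both genotypes with the Runx1 deletion and was not called where Foxl2 alone was lost. Its intensity in the 4 control ovaries was 23.8, 61.6, 28.9 and 26.4, and in the 4 Foxl2 KO ovaries 30.4, 45.0, 14.6 and 34.8. The 4 Runx1 KO ovaries read 88.3, 95.9, 106 and 139, and the 4 DKO ovaries 151, 105, 127 and 152. Every ovary of Runx1 KO and DKO thus lay above every ovary of control and Foxl2 KO, and neither control and Foxl2 KO nor Runx1 KO and DKO were separated from each other. Non-overlap in this direction held for 2.53% of all genes in Runx1 KO against control, 4.9% in DKO against control and 1.78% in DKO against Foxl2 KO. The share for Runx1 KO against Foxl2 KO, and that for all 4 groups together, was not counted.

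Runx1 KO exceeded control by 2.47-fold (log2 1.31 ± 0.23), with a limma adjusted p of 0.0438, and DKO exceeded it by 3.01-fold (1.59 ± 0.23), with an adjusted p of 0.00118. DKO exceeded Foxl2 KO by 3.24-fold (1.70 ± 0.23, adjusted p = 0.00775). The order of the groups by mean log2 level was Foxl2 KO (5.52 ± 0.42, SD, n = 4), control (5.62 ± 0.44), Runx1 KO (6.93 ± 0.25) and DKO (7.21 ± 0.23). The neighbours Foxl2 KO and control differed by -0.11 (95% interval -0.60 to 0.39), and DKO and Runx1 KO by 0.28 (-0.21 to 0.78), neither of which passed the test. A comparison of the single knockouts, added after the values were seen, put Msx2 lower in Foxl2 KO than in Runx1 KO (-1.41 ± 0.23, limma adjusted p = 0.00552, with 1.26% of all genes called).

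The Msx2 means of control and Foxl2 KO lie within the scale of the Y-linked genes, where adding 16 compresses differences, so the folds are understated if the true level there is near 0. The other Msx2 probe set, with intensities from 11.3 to 69.0, had group means within that scale and differed from control by 0.48 ± 0.32 in Runx1 KO and 0.01 ± 0.32 in DKO, so the rise rests on 1 probe set. The call in Runx1 KO failed in 13 of the 16 fits from which 1 ovary was omitted (adjusted p up to 0.147) and held without Control replicate 2, Foxl2 KO replicate 2 or Foxl2 KO replicate 3, whereas the call in DKO held in all 16. In whole ovaries, fewer cells of a type and less RNA per cell cannot be told apart, here and in every comparison.

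Msx1, the paralogue of Msx2, fell in Foxl2 KO. Its intensity was 112, 180, 146 and 98.5 in the control ovaries and 44.4, 61.7, 34.0 and 25.2 in Foxl2 KO. All 4 Foxl2 KO ovaries lay below all 4 controls, which 2.23% of all genes showed, and the fall was 2.64-fold (log2 -1.40 ± 0.30, limma adjusted p = 0.0289). The Foxl2 KO mean lies within the Y-linked scale, so the size of this fall and the place of Foxl2 KO below DKO are limited by background. The DKO ovaries read 53.7, 53.3, 75.8 and 61.7, also below every control (2.71% of all genes), yet the difference of -0.94 ± 0.30 was not called (adjusted p = 0.156).

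Runx1 KO ovaries spread widely for Msx1, at 102, 57.0, 47.7 and 183, overlapping every other group, and differed from control by -0.52 ± 0.30 (limma adjusted p = 0.738). By mean log2 level the groups ran from Foxl2 KO (5.80 ± 0.39, SD, n = 4) through DKO (6.26 ± 0.19) and Runx1 KO (6.68 ± 0.75) to control (7.20 ± 0.35), and no neighbouring pair in this order passed the test. The interaction asks how far the effect of the Runx1 deletion without Foxl2 departs from its effect with Foxl2, and for Msx1 it was 0.98 ± 0.43 (unadjusted p = 0.0367, limma adjusted p = 0.910). For the interaction 0 of the 8 genes were called by limma (2 at an unadjusted p under 0.05), beside 0.011% of all genes.

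The Foxl2 KO fall of Msx1 was lost in 5 of 16 fits without 1 ovary, namely Control replicate 2 or 3 or Foxl2 KO replicate 1, 3 or 4 (limma adjusted p up to 0.102). The other Msx1 probe set read 9.18 to 65.8, with group means within the Y-linked scale, and differed from control by 0.36 ± 0.36 in Foxl2 KO. The probe set used for Msx1 is of the type whose probes can match several transcripts.

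Osr2 rose in the double knockout. The control ovaries read 98.1, 60.7, 44.3 and 85.1, and the DKO ovaries 226, 328, 336 and 347, a 3.76-fold rise (log2 1.91 ± 0.29, limma adjusted p = 0.00170). Foxl2 KO ovaries, at 78.4, 94.9, 64.7 and 79.0, stayed within the range of the controls. Every DKO ovary lay above every control and Foxl2 KO ovary, a separation seen for 4.9% of all genes against control and 1.78% against Foxl2 KO. DKO exceeded Foxl2 KO by 3.40-fold (1.76 ± 0.29, limma adjusted p = 0.0388).

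The Runx1 KO ovaries were uneven for Osr2, at 68.5, 130, 214 and 235. The lowest lay within the controls and the others above them, and the difference of 0.93 ± 0.29 from control was not called (limma adjusted p = 0.441), nor was that of DKO from Runx1 KO (0.98 ± 0.29, adjusted p = 0.172). The mean log2 level was 6.42 ± 0.41 (SD, n = 4) in control, 6.56 ± 0.19 in Foxl2 KO, 7.35 ± 0.72 in Runx1 KO and 8.33 ± 0.27 in DKO, and no neighbouring pair in this order passed the test. The interaction for Osr2 was 0.83 ± 0.41 (adjusted p = 0.911).

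The other Osr2 probe set rose in DKO as well, from 56.6 to 82.6 in control to 129 to 297 in DKO (log2 1.43 ± 0.31, limma adjusted p over probe sets = 0.0248). On that probe set Foxl2 KO ovaries read 82.0 to 129, and the difference of DKO from Foxl2 KO was 0.85 ± 0.31 (adjusted p = 0.771). The call of DKO against Foxl2 KO on the main probe set was lost in 11 of 16 fits without 1 ovary (adjusted p up to 0.149), and held without Control replicate 1 or 3 or Runx1 KO replicate 1, 3 or 4. The call of DKO against control held in all 16.

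Osr1 overlapped between all groups, at 172, 244, 219 and 112 in control, 168, 113, 168 and 254 in Runx1 KO, 117, 256, 358 and 236 in Foxl2 KO, and 255, 160, 167 and 363 in DKO. The differences from control were -0.08 ± 0.33, 0.30 ± 0.33 and 0.29 ± 0.33 in Runx1 KO, Foxl2 KO and DKO. The 95% interval in DKO ran from -0.42 to 1.00, so an increase of the size seen for Osr2 lies outside it while a smaller one does not.

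**Figure D2:**
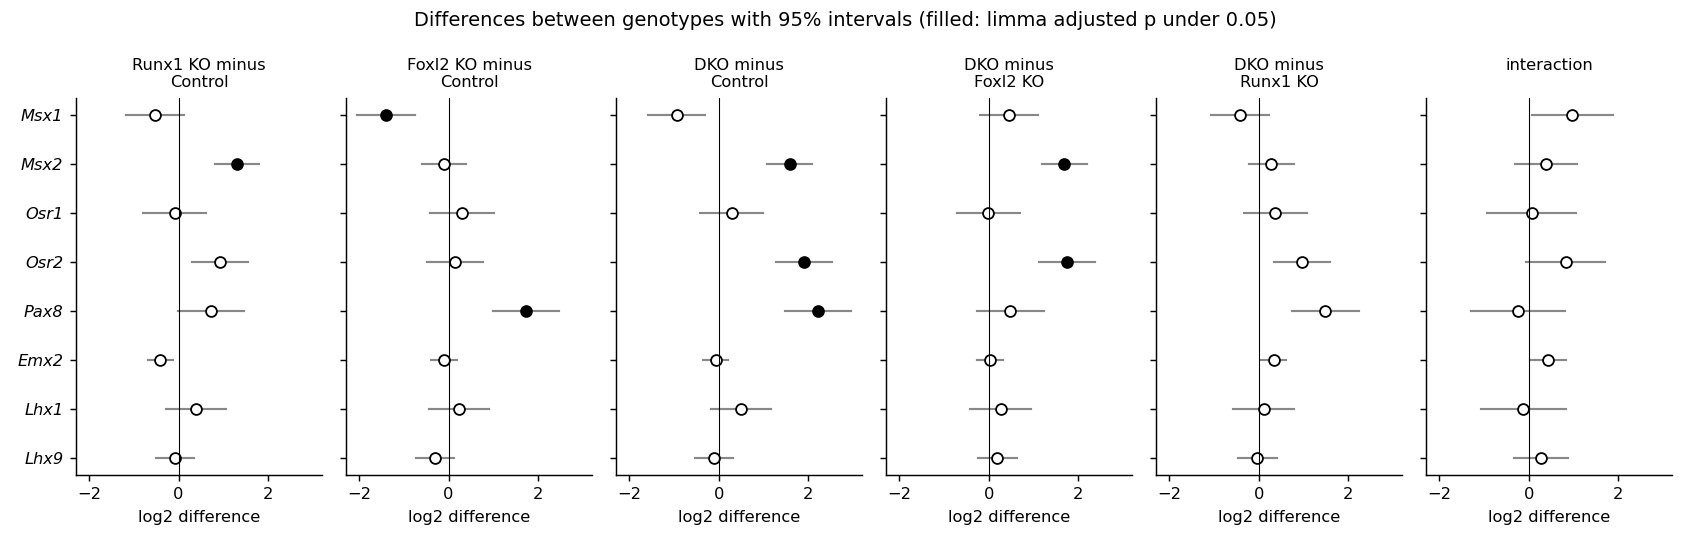
Log2 difference of each of the 8 genes (x axis) in 6 comparisons, with its 95% interval as a line; filled points passed the test at an adjusted p under 0.05 over all genes. The filled points are Msx2 in Runx1 KO, Msx1 and Pax8 in Foxl2 KO, Msx2, Osr2 and Pax8 in DKO against control, and Msx2 and Osr2 in DKO against Foxl2 KO.

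Pax8 rose where Foxl2 was lost, with or without Runx1. The control ovaries read 55.7, 258, 144 and 154, the Foxl2 KO ovaries 470, 506, 460 and 527, and the DKO ovaries 655, 622, 869 and 658. Each Foxl2 KO ovary lay above all controls, as for 4.49% of all genes. Each DKO ovary lay above all ovaries of the other groups, a separation shown by 4.9% of all genes against control and 3.22% against Runx1 KO. The level in Foxl2 KO was 3.33 times that in control (log2 1.74 ± 0.35), with a limma adjusted p of 0.0184. DKO exceeded control by 4.68-fold (2.23 ± 0.35), with a limma adjusted p of 0.00213.

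Runx1 KO ovaries overlapped the controls for Pax8, at 453, 171, 144 and 271 (0.73 ± 0.35, limma adjusted p = 0.689). DKO was 2.82-fold above Runx1 KO (95% interval of the log2 difference 0.75 to 2.24), which was not called (limma adjusted p = 0.0566), and this difference was called without Control replicate 1 (adjusted p = 0.0173), Control replicate 2 (0.0388) or Runx1 KO replicate 1 (0.0214). DKO and Foxl2 KO did not overlap (1.78% of all genes) but differed by 0.49 ± 0.35 (95% interval -0.26 to 1.24, adjusted p = 0.998). In order of mean log2 level the groups were control (7.25 ± 0.80, SD, n = 4), Runx1 KO (7.98 ± 0.70), Foxl2 KO (8.98 ± 0.09) and DKO (9.47 ± 0.21), and no neighbouring pair passed the test. The SD of the control group was 0.80 and that of the Foxl2 KO group 0.09, so the groups also differed in how widely the ovaries spread.

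The other Pax8 probe set moved the same way, from 25.5 to 72.7 in control through 81.5 to 117 in Foxl2 KO to 119 to 157 in DKO. Its difference from control was called in DKO (log2 1.30 ± 0.24, limma adjusted p over probe sets = 0.00888) and not in Foxl2 KO (0.88 ± 0.24, adjusted p = 0.115). On the main probe set the Foxl2 KO call was lost without Foxl2 KO replicate 2 or 4 (adjusted p up to 0.0585), and the DKO call held whichever ovary was left out.

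**Figure D3:**
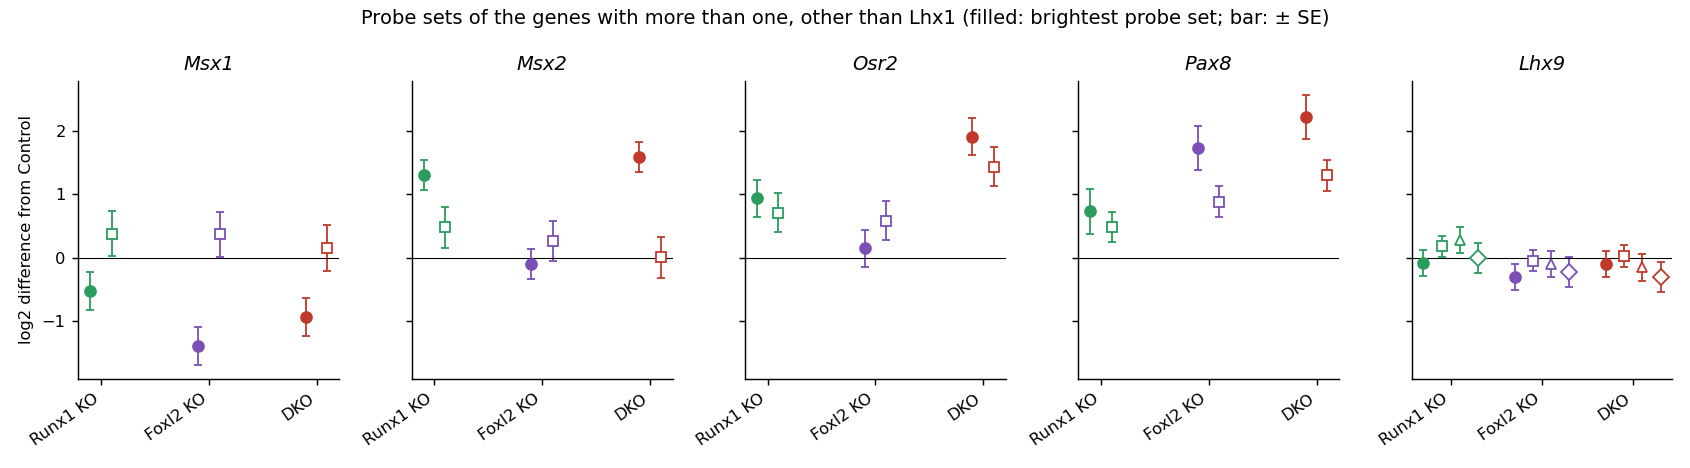
Log2 difference from control (y axis) in Runx1 KO, Foxl2 KO and DKO for every probe set of Msx1, Msx2, Osr2, Pax8 and Lhx9, with bars of 1 moderated SE; the filled point is the brightest probe set and open points are the others. Both probe sets of Osr2 and of Pax8 lie above 0 in DKO, whereas the dimmer probe sets of Msx1 and Msx2 lie near 0 in DKO.

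Because Pax8 marks duct epithelium, the other markers of that epithelium were set beside it. Of 9 listed, 8 were measured, 4 of these had a mean at or below the Y-linked scale (Ret, Wnt9b, Sim1 and Wnt7a), and their summed intensity was 515 to 751 in control, 720 to 809 in Runx1 KO, 512 to 643 in Foxl2 KO and 546 to 891 in DKO. None was called higher in any comparison with control, and 3 of the 8 had an unadjusted p under 0.05 in at least 1 of the 6 comparisons. Besides Calb1 these were Tfcp2l1, whose difference from control was 0.67 ± 0.18 in DKO (limma adjusted p = 0.0724), and Cdh16, at 0.70 ± 0.21 in DKO (adjusted p = 0.103) and 0.79 ± 0.21 in Runx1 KO (adjusted p = 0.289); both are named after their values were seen. Calb1, which encodes a calcium-binding protein of kidney tubules and other tissues, fell in both groups without Foxl2. Its log2 difference from control was -1.73 ± 0.33 in Foxl2 KO and -1.36 ± 0.33 in DKO, with limma adjusted p of 0.0116 and 0.0415. Its means in these groups lay within the Y-linked scale, and with all its probe sets averaged the differences were -0.62 and -0.48 (adjusted p = 0.120 and 0.236). The DKO call of Calb1 was lost in 10 of 16 fits without 1 ovary (adjusted p up to 0.129), and held without Control replicate 1, Runx1 KO replicate 3 or 4, Foxl2 KO replicate 2 or 4, or DKO replicate 1.

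Markers of the supporting cells also changed. Of 8 Sertoli cell markers, 1 rose in Runx1 KO, 5 in Foxl2 KO and 5 in DKO, beside 0.0495%, 0.813% and 1.28% of all genes. Their summed intensity was 1023 to 1314 in control, 1247 to 2090 in Runx1 KO, 1761 to 2988 in Foxl2 KO and 2165 to 2461 in DKO. The marker that rose in Runx1 KO was Fgf9, which encodes a growth factor of the fetal testis, with a log2 difference of 0.98 ± 0.17 (limma adjusted p = 0.0438). That call held without Control replicate 1 or Foxl2 KO replicate 1 or 2 and in none of the remaining 13 of 16 fits (adjusted p up to 0.140). Fgf9 also rose in DKO (1.02 ± 0.17, limma adjusted p = 0.00385), and this call held in all 16 fits. In Foxl2 KO it differed from control by 0.66 ± 0.17, which was not called (limma adjusted p = 0.0767). With its own thresholds and by quantitative PCR at birth, the study reported a significant rise of Fgf9 in DKO alone. By quantitative PCR it detected no significant change of Fgf9 in fetal Runx1 KO gonads. Amh, which defines fetal Sertoli cells, had a mean at or below that of the brightest Y-linked gene of the scale. Of 9 pre-granulosa markers, which include Foxl2 itself, 4 fell in Foxl2 KO and 5 in DKO, beside 0.704% and 0.857% of all genes. The list did not move as a whole. Wnt4 (0.79 ± 0.21), Rspo1 (0.52 ± 0.15) and Amhr2 (0.52 ± 0.16) were higher in DKO than in control, though not called (limma adjusted p = 0.0745, 0.0911 and 0.113). At an unadjusted p under 0.05 in at least 1 comparison there were 8 pre-granulosa and 7 Sertoli markers. The part of these supporting cell markers in the levels of Pax8, Msx1, Msx2 and Osr2 was not tested. In the remaining lists 0 of 9 surface epithelium, 0 of 7 stroma, 0 of 12 oocyte, 0 of 10 meiosis, 0 of 7 endothelial and macrophage and 0 of 6 erythroid markers were called in any of the 6 comparisons by limma. At an unadjusted p under 0.05 in at least 1 comparison these lists gave 1, 0, 3, 2, 3 and 2 markers. The erythroid medians from control were -1.05 in Runx1 KO, -1.06 in Foxl2 KO and -1.05 in DKO. Summed erythroid intensity ran from 371 to 14799 in control, the highest being Control replicate 4. With that spread, the lack of an erythroid call does not show equal levels.

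Emx2 was bright and varied little. It read 2231, 2879, 2997 and 2430 in control, 2027, 1999, 1613 and 2311 in Runx1 KO, 2593, 2469, 2423 and 2280 in Foxl2 KO, and 2858, 2318, 2400 and 2447 in DKO. The Runx1 KO ovaries were the lowest as a group and overlapped the controls in 1 ovary. Their difference from control, -0.40 ± 0.13, had an unadjusted p of 0.00845 and was not called by limma (adjusted p = 0.486), and DKO differed from control by only -0.07 ± 0.13 (95% interval -0.35 to 0.22).

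Lhx9 was also bright, at 959, 1116, 1906 and 1031 in control, 967, 1304, 1258 and 1060 in Runx1 KO, 883, 1132, 1140 and 789 in Foxl2 KO, and 1176, 1207, 1226 and 899 in DKO. All groups overlapped, and the widest difference from control was -0.30 ± 0.20 in Foxl2 KO (95% interval -0.74 to 0.13). The 3 other Lhx9 probe sets differed from control by -0.31 to 0.28, and none of their differences was called. Lhx1 gave 2.60 to 30.4 over all 16 ovaries, with group means at or below the upper end of the Y-linked scale, and its other probe set gave 2.95 to 35.2, so that a level of Lhx1 was not detectable with these probe sets.

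Genes that work with these factors were counted from lists. Of 11 measured partners in the kidney and duct cascade, such as Eya1, Wt1 and Hoxa11, 8 had an unadjusted p under 0.05 in at least 1 of the 6 comparisons. By limma 1 was called higher in Foxl2 KO against control (0.813% of all genes) and none elsewhere. It was Hoxd11, a posterior Hox gene of kidney and limb, which read 52.4, 59.1, 33.6 and 36.0 in control, 72.2, 83.4, 122 and 104 in Runx1 KO, 74.6, 85.5, 112 and 153 in Foxl2 KO, and 87.4, 87.1, 89.6 and 88.0 in DKO. All 12 knockout ovaries lay above all 4 controls, whose mean lay within the Y-linked scale. Taken 1 genotype at a time, 2.53% of all genes showed this in Runx1 KO, 4.49% in Foxl2 KO and 4.9% in DKO. The share for the 3 genotypes together was not counted. The log2 difference from control was 0.98 ± 0.20 in Foxl2 KO, 0.86 ± 0.20 in Runx1 KO and 0.79 ± 0.20 in DKO, with limma adjusted p of 0.0186, 0.188 and 0.0536. The Foxl2 KO call was lost without Control replicate 3 or 4 or Foxl2 KO replicate 3 or 4 (adjusted p up to 0.0692).

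In the BMP pathway, whose signals act on the Msx genes, 1 of 21 members rose in Runx1 KO, 1 in Foxl2 KO and 2 in DKO, and 0 fell. Of all genes 0.0495%, 0.813% and 1.28% were called higher there. The list medians from control were 0.04, 0.02 and 0.07, against 0.04, 0.05 and 0.04 over all genes, so the list as a whole was not shifted. Bmpr1b, a type 1 BMP receptor gene, read 348, 462, 287 and 393 in control, 980, 970, 800 and 715 in Runx1 KO, 820, 623, 565 and 698 in Foxl2 KO, and 694, 828, 992 and 744 in DKO. Each knockout ovary lay above each control, a separation that 2.53% of all genes showed in Runx1 KO, 4.49% in Foxl2 KO and 4.9% in DKO. On the log2 scale Bmpr1b exceeded control by 1.19 ± 0.17 in Runx1 KO, 0.84 ± 0.17 in Foxl2 KO and 1.10 ± 0.17 in DKO, with limma adjusted p of 0.00793, 0.0189 and 0.00184. The Foxl2 KO call was lost without Control replicate 1 or 3 or Foxl2 KO replicate 1 or 4 (adjusted p up to 0.0674), and the others held in all 16 fits.

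Bmp7, a BMP ligand gene, read 111, 168, 135 and 68.9 in control and 209, 201, 281 and 328 in DKO, which did not overlap (4.9% of all genes in this direction). Runx1 KO ovaries read 148 to 205 and Foxl2 KO ovaries 164 to 260, and both groups overlapped DKO. Their differences from control, 0.53 ± 0.22 and 0.71 ± 0.22, were not called (limma adjusted p = 0.616 and 0.178), nor was that of DKO from Foxl2 KO (0.31 ± 0.22). Bmp7 rose in DKO over control (log2 1.01 ± 0.22, limma adjusted p = 0.0241), a call lost without Control replicate 1 or 4 or DKO replicate 3 or 4 (adjusted p up to 0.0893) and under 4 of 12 other settings (adjusted p up to 0.112). The immediate BMP targets Id1, Id2, Id3 and Id4 were in the list and were not called. Over the 21 genes, 7 had an unadjusted p under 0.05 in at least 1 comparison.

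Of 10 early gonad partners, 1 rose in DKO against control (1.28% of all genes) and against Foxl2 KO (0.022%). It was Nr5a1, whose own regulatory sequence drives the Cre. Nr5a1 read 570, 773, 591 and 605 in control, 1324, 858, 1019 and 1204 in Runx1 KO, 807, 903, 828 and 762 in Foxl2 KO, and 1824, 1557, 1737 and 1396 in DKO. All DKO ovaries lay above all others, and Runx1 KO lay above control without overlap. Such separation of DKO was seen for 4.9% of all genes against control, 1.78% against Foxl2 KO and 3.22% against Runx1 KO. For Runx1 KO against control the share was 2.53%. Nr5a1 rose by 1.34 ± 0.15 in DKO over control (limma adjusted p = 8.63e-05) and by 0.96 ± 0.15 over Foxl2 KO (adjusted p = 0.0215). It was 0.77 ± 0.15 above control in Runx1 KO, which was not called (adjusted p = 0.0718). The call of DKO against Foxl2 KO was lost without Foxl2 KO replicate 1, 3 or 4 or DKO replicate 1, 2 or 3 (adjusted p up to 0.104).

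Among 23 LIM and homeobox relatives and cofactors of these factors, 0 were called in any comparison by limma (5 at an unadjusted p under 0.05 in at least 1), and 11 had a mean at or below 6.16, the upper end of the Y-linked scale. The smallest unadjusted p belonged to Lmo4, a LIM-only cofactor gene, in DKO (log2 difference from control -0.59 ± 0.19, adjusted p = 0.140). Msx3, the third Msx gene, differed from control by 0.56 ± 0.21 in Foxl2 KO (adjusted p = 0.310) and its mean was among these.

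**Figure D4:**
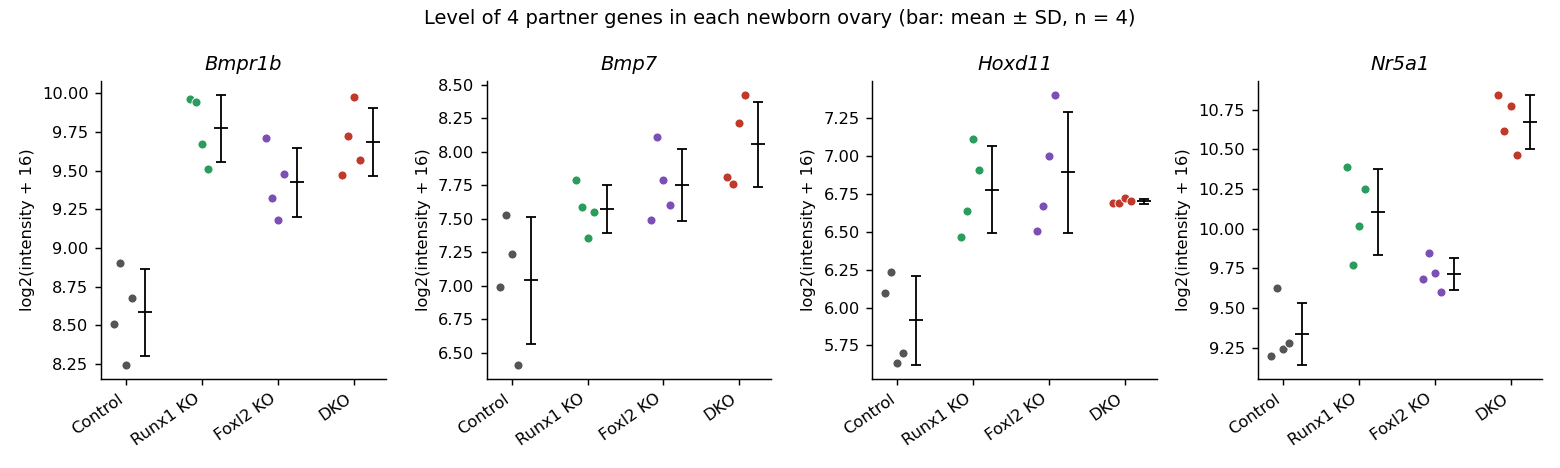
Level of Bmpr1b, Bmp7, Hoxd11 and Nr5a1 as log2(intensity + 16) on the y axis, 1 point for each ovary, with the mean ± SD of 4 ovaries beside the points and a separate scale for each panel. Bmpr1b and Hoxd11 lie above the 4 controls in all 12 knockout ovaries, and Nr5a1 lies highest in the 4 DKO ovaries.

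For each gene that was called, the genes most like it in pattern were sought among 9093 genes above the median level, by Pearson correlation of log2 values over the 16 ovaries. The ovaries share 4 genotypes, so a high correlation can come from genotype alone, and the values are a description. Msx2 was closest to Nr5a1 (r = 0.84), Nckap5 (0.84) and Nr6a1 (0.82). Msx1 was closest to Bace2 (0.90), Mmp11 (0.88) and Cachd1 (0.86), and Pax8 to Bmerb1 (0.92), Nr0b1 (0.91) and Gas7 (0.91). Osr2 was closest to Mitf (0.82), Nr5a1 (0.78) and Pde7a (0.77), so that Nr5a1 was among the nearest genes of both Msx2 and Osr2.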

How the data were processed

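Newborn XX ovaries of 4 genotypes, 4 ovaries each, had been hybridised by the authors to Affymetrix GeneChip Mouse Genome arrays, 1 ovary per array. The deposited values are linear intensities per probe set from Affymetrix Expression Console 1.2, scaled so that the mean after trimming 2% at each end is 500 on every array; the summarisation algorithm is not given in the sources used here. Each of the 16 value columns belonged to a sample named in the labels, and 0 were unused. Probe sets were named through the platform annotation: of 45101, 64 were controls, 34945 had 1 gene, 932 several and 9160 none. After 16 was added, log2 was taken, and the probe set with the highest mean stood for each of 18193 genes (9010 had more than 1).

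The 16 arrays entered a single limma 3.58.1 fit (lmFit, eBayes) with a mean for each of the 4 genotypes, run in R 4.3.3 with statmod 1.5.0, which left 12 residual and 3.32 prior degrees of freedom. Of 6 contrasts, 3 set a knockout genotype against control, 2 set DKO against a single knockout, and the last, the interaction, took (DKO - Foxl2 KO) - (Runx1 KO - control). Foxl2 KO against Runx1 KO was added after the values were seen. All tests were two-sided, and the Benjamini-Hochberg adjustment ran over the genes of each contrast. Single probe sets were adjusted over all probe sets with 1 gene. The numbers of arrays limit the precision. The genes described, the 13 lists of partner and marker genes (146 genes, 139 measured) and the tests were chosen with earlier results of these data known. The text names all 9 factors, the targeted genes, the called genes of each list of partners and of duct markers or, where none was called, 2 with the smallest p, and the 3 genes most correlated with each called factor. Marker lists of other cell types are given as counts, with single genes named after their values were seen. No scan date or batch was used. The steps were tested on simulated data. Alternatives were other offsets (1 and 50), quantile normalization, equal array medians, probe sets tested singly or averaged per gene, no probe sets ending in _x_at or _s_at, a filter at the median level, array weights, a trended and robust prior, a replicate block, fits of only the groups compared, the study's rule of unadjusted p and a fold over 1.5, and leaving out each ovary in turn. The study had applied its rule to log2 values normalized by robust multichip average. Here the rule was applied to log2(intensity + 16) with 1 probe set per gene, so counts under it are not the study's own.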

Additional observations from a re-analysis of the deposited data

Results flagged for a closer look

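In each group of 4 ovaries the gap between the most extreme value and its neighbour was set against the range of the group (Dixon's ratio, at the 95% critical value). Of 32 groups of the 8 genes, 4 exceeded it, where chance gives about 1 in 20. DKO replicate 1 stood low for Osr2 (ratio 0.868), at an intensity of 226 against 328 to 347 in the other DKO ovaries. DKO replicate 3 stood high for Pax8 (ratio 0.833), at 869 against 622 to 658. Foxl2 KO replicate 2 stood high for Lhx1 (ratio 0.885), at 27.7 against 2.87 to 4.78, all below 6.16, the upper end of the Y-linked scale, on the log2 scale. DKO replicate 4 stood low for Lhx9 (ratio 0.865), at 899 against 1176 to 1226. The Osr2 and Pax8 rises in DKO over control were called without each of these ovaries.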

How the results depend on the processing

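Msx2, Osr2 and Pax8 in DKO against control held when any ovary was left out, and the count of called genes in that comparison stayed at 3. Over the fits without 1 ovary the count ran from 0 to 1 in Runx1 KO, 0 to 2 in Foxl2 KO, 1 to 2 in DKO against Foxl2 KO and 0 to 1 in DKO against Runx1 KO. In Runx1 KO the count fell from 1 to 0 with an offset of 1, quantile normalization, array weights, probe sets averaged per gene or tested singly, a filter at the median level, a trended and robust prior, the replicate block and only the groups compared, and was 2 under the study's rule of unadjusted p and fold. In Foxl2 KO it fell from 2 to 1 with the mean of all probe sets, no _x_at or _s_at probe sets, genes above the median level and only the groups compared, and to 0 with the replicate block. In DKO it fell to 1 with genes above the median level, a filter that removes Msx1, Msx2, Osr2 and Lhx1, and rose to 4 (Msx1) under the study's rule. DKO against Foxl2 KO went from 2 to 1 with an offset of 1, the replicate block and only the groups compared, and to 0 with the mean of all probe sets and genes above the median level. DKO against Runx1 KO went from 0 to 1 (Pax8) with an offset of 50, quantile normalization, probe sets averaged per gene, a filter at the median level and a trended and robust prior, and to 2 under the study's rule. Replicate numbers gave no sign of pairing over all genes: of 24 same-numbered pairs 1 had a residual correlation above 0.1 (median -0.0318), so the block result is given here only. The study used littermates as controls, and the labels do not give which ovaries shared a litter. The correlations therefore cannot show that litters were not shared. Without _x_at or _s_at probe sets Msx1 turned to 0.38, 0.36 and 0.15 in Runx1 KO, Foxl2 KO and DKO against control, to -0.21 in DKO against Foxl2 KO and to -0.59 in the interaction. With the mean of all probe sets Msx2 turned to 0.078 in Foxl2 KO, -0.094 in DKO against Runx1 KO and -0.17 in the interaction, Lhx9 to 0.090 in Runx1 KO and -0.057 in the interaction, and the Lhx1 interaction to 0.19. The Msx2 rise in DKO was then not called (adjusted p = 0.118 by limma). With an offset of 1 Lhx1 turned to -0.24 in Runx1 KO, -0.28 in Foxl2 KO and 1.06 in the interaction. Osr1 in DKO against Foxl2 KO turned to 0.028 with equal medians and 0.022 with quantile normalization, and Lhx9 in DKO against Runx1 KO to 0.00108 with quantile normalization and 0.015 with array weights. Of these differences only Msx1 in Foxl2 KO was called in the values reported; its remaining probe set is the dim one, and the cause was not tested. Without 1 ovary, uncalled differences changed sign as follows: Msx2 in Foxl2 KO -0.24 to 0.11, Osr2 in Foxl2 KO -0.021 to 0.29, Pax8 interaction -0.52 to 0.12, Emx2 in DKO against Foxl2 KO -0.030 to 0.0698, Osr1 in Runx1 KO -0.29 to 0.092, in DKO against Foxl2 KO -0.30 to 0.20 and in the interaction -0.21 to 0.28, Lhx1 in Foxl2 KO -0.057 to 0.35, in DKO against Runx1 KO -0.093 to 0.37 and in the interaction -0.32 to 0.17, and Lhx9 in Runx1 KO -0.19 to 0.14, in DKO -0.21 to 0.11 and in DKO against Runx1 KO -0.10 to 0.078. Of the other genes, Bmp7 in DKO lost its call with probe sets averaged per gene, array weights, the replicate block and only the groups compared. Nr5a1 in DKO against Foxl2 KO lost it with probe sets averaged per gene, the replicate block and only the groups compared, Calb1 in DKO with these and an offset of 1 or quantile normalization, and Calb1 in Foxl2 KO with probe sets averaged. Bmpr1b in Runx1 KO and Foxl2 KO and Hoxd11 in Foxl2 KO lost it with only the groups compared, and Bmpr1b in Foxl2 KO also with equal medians. Signal over background limits Hoxd11 in control, Calb1 in Foxl2 KO and DKO, Lhx1, Msx2 in control and Foxl2 KO, and Msx1 in Foxl2 KO.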
